A study of Mus musculus with 6 samples.

Results

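The mitochondrial respiratory chain is built from subunits encoded in the nucleus and in mitochondrial DNA. The genes described here are the nuclear-encoded members, taken as all rows of the stage count table whose names start with Ndufa, Ndufb, Ndufc, Ndufs, Ndufv, Uqcr, Cox4, Cox5, Cox6, Cox7, Cox8 or Atp5, without names ending in -ps. This rule gave 90 of 22547 rows: 38 subunits of complex I, 8 assembly factors of complex I (the Ndufaf genes), 8 subunits of complex III, 18 of complex IV and 18 of the ATP synthase. The row Ndufb1-ps, with 57874 UMIs, was left out by the rule. UMIs (unique molecular identifiers) count captured RNA molecules, and 87 of the 90 members had at least 1 UMI. Cox7b2, Cox8c and Atp5o had 0 UMIs, although a second row, Atp5o.1, held 34324, so the 2 Atp5o rows should be read together. Ndufa4 and Ndufa4l2 carry complex I names and were counted there by name, but the Ndufa4 protein is now regarded as a part of complex IV, and Cox7a2l is known as a supercomplex factor.

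Single-cell RNA was sequenced from mouse mammary gland tumours of an MMTV-Wnt1 model with an inducible FGF receptor, transplanted into mice labelled as strain FVB (FVB.rGH-Luc-GFP). The MMTV promoter drives Wnt1 in mammary epithelium, and the drug B/B homodimerizer, given every 3 days until tumours reached their target size, activates the receptor. According to the labels, NVP-BGJ398, which inhibits FGF receptors, was given over 14 days and then withheld for 14 days, and they do not say whether the Primary group received it. The groups were Primary (genotype label MMTV-Wnt1/iFGRR2, age 8 to 10 weeks), Dormant (MMTV-Wnt1/iFGRR1, 10 to 12 weeks), Long-term dormant (MMTV-Wnt1/iFGRR4, 32 to 34 weeks) and Recurrent (MMTV-Wnt1/iFGRR3, 20 to 22 weeks). The labels do not explain the number at the end of each genotype. Each group was 1 library, from tissue that was dissociated, frozen, thawed and sorted for live cells, with 10000 cells targeted. Stage, age and library therefore cannot be told apart, no test between stages was possible, and every interval given is a 95% interval for counting error only. The 2 libraries of the antibody experiment were not used here. Where 4 values follow each other they stand in stage order, with Primary first, Dormant next, Long-term dormant after it and Recurrent last.

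The respiratory chain moves electrons from NADH through complex I, and from succinate through complex II, to complex III and then to complex IV, which reduces oxygen. Complexes I, III and IV pump protons, and the ATP synthase uses the resulting gradient to make ATP. The nuclear subunits have to match a small set of subunits encoded in mitochondrial DNA, and some nuclear subunits of complex IV exist as isoforms that differ between tissues. In mammary tumours the pathway is usually described beside glycolysis, the other main route to ATP.

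The libraries held 3541 to 6083 deposited cells with medians of 2568 to 7065 UMIs per cell, lowest in Dormant and highest in Recurrent. After filtering, 18046 cells were used and 7 of them stayed unnamed. No doublet was called in Dormant, against 53 in Primary, 137 in Long-term dormant and 57 in Recurrent, and 194 cell barcodes occurred in more than 1 library. Cells were grouped into classes rebuilt by clustering without the respiratory chain genes, and a class is called X-like because it was named from markers. The Long-term dormant library stood apart in its epithelial-like cells. An eGFP UMI was present in 3 of its 162 epithelial-like cells, against 2100 of 2106 in Primary, 260 of 304 in Dormant and 2630 of 2658 in Recurrent. Luminal-like cells made up 1664 of the Primary, 125 of the Dormant, 109 of the Long-term dormant and 2641 of the Recurrent epithelial-like cells, so the mixture differed as well.

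Members can be seen first at their promoters. RefSeq promoter windows of 300 bases (250 before to 50 after the start, build GRCm38.p6) were matched to 72 of the 90 members by symbol, which gave 77 windows. NRF1, ETS family factors and YY1 are known regulators of respiratory chain genes, and their motifs were searched on both strands. They were spelled GCGCA and GCGC with any base between them for NRF1, CCGGAAG for ETS factors and AAGATGGC for YY1, and none contains another. The NRF1 letters were in 18 member windows (23.4%) and in 4.60% of all 32851 windows. The ETS letters were in 17 (22.1%) against 8.86%, and the YY1 letters in 10 (13.0%) against 2.75%. Any of the 3 was in 39 member windows (50.6%) against 14.7%. A match is a description of letters and not a site.

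The 4 stretches below belong to members on which the results turn, and each ends before the annotated gene begins. Uqcr11 and Ndufc1 were lower in Dormant T- or NK-like cells, Cox6a1 was higher in Recurrent than in Dormant epithelial-like cells, and Atp5b moved little in both. They lie at chr10:80406831-80407071 (minus strand), chr3:51408989-51409205 (minus), chr5:115348982-115349208 (minus) and chr10:128083057-128083272 (plus). They are written 5′ to 3′ along the gene with motif matches in capitals.
Uqcr11: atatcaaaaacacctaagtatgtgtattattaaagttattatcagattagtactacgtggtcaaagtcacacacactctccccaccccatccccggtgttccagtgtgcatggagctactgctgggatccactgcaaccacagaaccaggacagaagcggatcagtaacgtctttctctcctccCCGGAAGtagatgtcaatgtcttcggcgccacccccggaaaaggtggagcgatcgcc
Ndufc1: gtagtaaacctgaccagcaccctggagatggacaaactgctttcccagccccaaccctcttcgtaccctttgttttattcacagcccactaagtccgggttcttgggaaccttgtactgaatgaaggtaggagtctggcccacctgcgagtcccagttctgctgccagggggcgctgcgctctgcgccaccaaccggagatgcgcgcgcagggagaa
Cox6a1: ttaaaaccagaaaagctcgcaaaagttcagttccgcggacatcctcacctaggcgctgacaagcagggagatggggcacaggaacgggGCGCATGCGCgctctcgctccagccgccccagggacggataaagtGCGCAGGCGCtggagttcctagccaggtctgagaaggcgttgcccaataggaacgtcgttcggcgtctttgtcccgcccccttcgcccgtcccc
Atp5b: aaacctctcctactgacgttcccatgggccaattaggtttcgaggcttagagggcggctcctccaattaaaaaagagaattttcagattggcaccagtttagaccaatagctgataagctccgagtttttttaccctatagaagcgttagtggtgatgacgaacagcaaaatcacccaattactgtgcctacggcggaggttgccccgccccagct
Uqcr11 showed 1 ETS match and Cox6a1 2 NRF1 matches, while Ndufc1 and Atp5b showed none. The full window of Ndufc1 held a YY1 match and that of Cox6a1 an ETS match outside the stretch printed. Among the members lower in Dormant than in Primary T- or NK-like cells, 15 of 27 with a window held any of the 3 motifs, as did 20 of the 37 that were not called.

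Epithelial-like cells gave the largest share of their UMIs to the 90 members in each of the 4 libraries. In stage order the shares were 3.13% (interval 3.12 to 3.14), 2.76% (2.74 to 2.78), 3.40% (3.37 to 3.44) and 3.70% (3.69 to 3.70). It was highest in Recurrent and lowest in Dormant, with intervals that did not overlap. Scaled to UMIs without mitochondrial, ribosomal protein, haemoglobin and immunoglobulin genes, the shares were 5.07%, 4.54%, 6.06% and 5.54% in the same order. Epithelial-like cells stayed first in every library on that scale, Dormant stayed lowest among them, and Long-term dormant passed Recurrent. Ribosomal protein genes took 32.7%, 34.7%, 38.8% and 29.4% of the epithelial-like UMIs in the same order, and the part of this in the result was not tested.

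T- or NK-like cells, the lymphocyte class, had a share of 2.82% (2.80 to 2.85) in Primary and 2.88% (2.85 to 2.91) in Recurrent. The Dormant value was 2.13% (2.12 to 2.14) and the Long-term dormant value 2.59% (2.55 to 2.62). The lymphocytes of both dormant libraries had a share below the macrophage-like cells of their own library, while those of Primary and Recurrent lay above them. Macrophage- or monocyte-like cells had 2.28% (2.27 to 2.29), 2.52% (2.49 to 2.55), 3.00% (2.99 to 3.02) and 2.29% (2.28 to 2.30) in stage order. Their highest library was Long-term dormant, and the intervals of Primary and Recurrent overlapped.

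The other classes lay below epithelial-like cells in each library, but not always below lymphocytes or macrophages. Plasmacytoid dendritic-like cells had 2.37% in Dormant and 2.39% in Long-term dormant. In Dormant the plasmacytoid dendritic-like, dendritic-like and fibroblast-like shares were above the 2.13% of T- or NK-like cells. Dendritic-like cells of the first 3 libraries had 2.31% (2.26 to 2.35), 2.25% (2.22 to 2.28) and 2.37% (2.35 to 2.39), and the Primary dendritic-like and macrophage-like intervals overlapped. Fibroblast-like cells, which were too few in Primary, had 2.19% (2.17 to 2.21), 2.20% (2.19 to 2.21) and 2.31% (2.27 to 2.34) in the other 3. Dormant and Long-term dormant fibroblasts were therefore not apart in the summed share, although single genes were. Plasma-like cells, which secrete antibody, had 1.79% (1.77 to 1.81) in Dormant, and immunoglobulin genes take up much of such cells' RNA. The 53 neutrophil-like cells of Primary, with a median of 690 UMIs, had the lowest share at 0.807% (0.723 to 0.898).

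**Figure D1:**
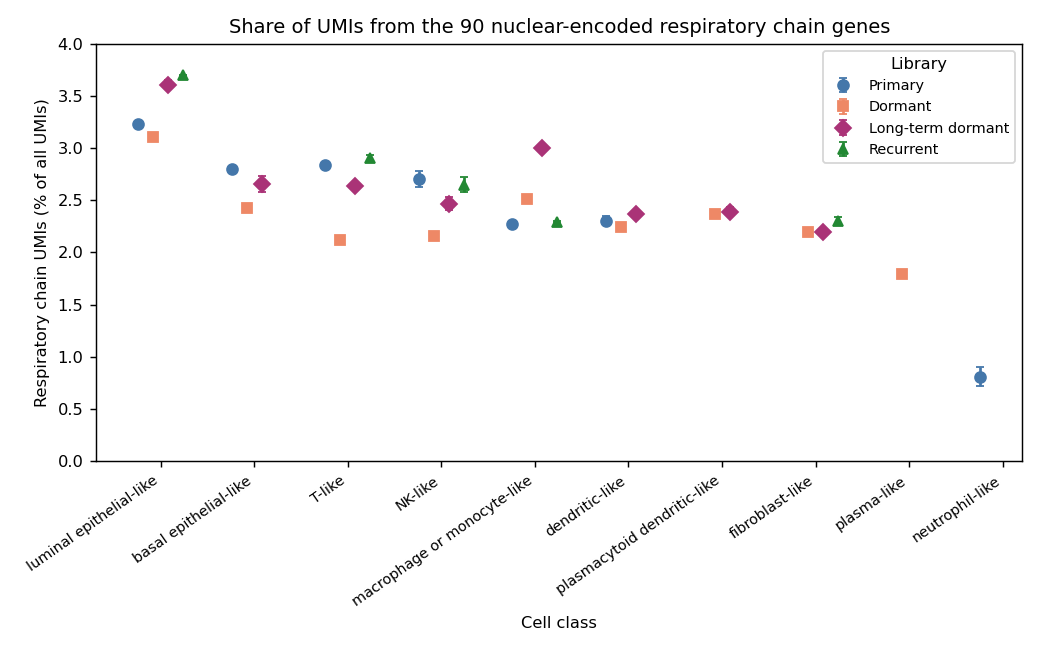
Share of UMIs from the 90 respiratory chain genes (y axis, % of all UMIs of the class) by cell class (x axis) and library (colour and shape), for classes with at least 50 cells in the library; error bars are 95% Clopper-Pearson intervals for counting error. Dormant T-like cells sit lowest among the 4 libraries at 2.12%, and luminal epithelial-like cells lie above every other class in each of the 4 libraries.

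Levels within the chain spanned a wide range. Cox4i1 and Cox8a, which encode structural subunits of complex IV, were the most abundant members over all cells, with 157529 and 129096 UMIs. In epithelial-like cells Cox4i1 was at 1599, 1432, 2278 and 1808 CPM (UMIs per 1000000 UMIs of the class). Ndufs1, which encodes the largest iron-sulfur subunit of complex I, was at 18.0, 25.8, 18.3 and 15.7 CPM. Values are counts of transcript ends, so they do not scale with transcript length, although capture differs between genes. The low count of Ndufs1 makes its ratios less precise than those of Cox4i1.

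Between 2 libraries, a gene is called higher or lower where its CPM ratio passed 1.5-fold, its interval lay on 1 side of 1 and it had at least 100 UMIs over both libraries. The share of all tested genes called the same way is given beside each count as the background. A log2 ratio of 1 is a doubling. Dormant is the reference of 2 of the comparisons and the numerator of another, and Primary is shared in the same way, so the comparisons are not independent of each other.

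T- or NK-like cells held the widest shift of respiratory chain genes. In Dormant against Primary, 31 of 77 members were called lower and 0 higher, where 17.4% of all tested genes were called lower and 18.4% higher. The median log2 ratio of the members was -0.50 against -0.01 for all tested genes. Genes with transcripts of like length, chosen as a comparison after the data were seen, lay in between. Of these 711 genes, which are neither members nor ribosomal protein genes, 34.9% were called lower and 7.59% higher, with a median of -0.38. Of those with a mean of at least 100 CPM, 27.5% were lower, beside 25 of 61 members. The member count is thus near that of all genes of like length, and above it among those with at least 100 CPM. Because this comparison was chosen after the data were seen, nothing particular to the respiratory chain is read from it.

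Complex I gave most of the calls, with 20 of 37 members lower, and complex III gave 4 of 8. Complex IV had 1 of 11 lower, the ATP synthase 4 of 17 and the assembly factors 2 of 4. Ndufb3, an accessory subunit of the membrane arm of complex I, was at 155, 73.7, 119 and 138 CPM in stage order. Dormant was the lowest of the 4, at a log2 ratio to Primary of -1.07 (-1.30 to -0.85). Ndufs4, an accessory subunit of the peripheral arm, was at 118, 52.0, 74.9 and 95.6 CPM, again lowest in Dormant (log2 ratio -1.18, -1.44 to -0.92). The assembly factor gene Ndufaf3 was at 33.4, 13.6, 19.3 and 24.9 CPM (log2 ratio -1.30, -1.80 to -0.78).

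Dormant was also the lowest library for the further subunit genes Uqcr11, Ndufc1 and Cox6b1, which were chosen after their values were seen. Uqcr11, a small subunit of complex III, was at 344, 185, 380 and 369 CPM, and its log2 ratio of Dormant to Primary was -0.89 (-1.04 to -0.75). Ndufc1, a membrane arm subunit of complex I, was at 190, 108, 192 and 226 CPM (log2 ratio -0.81). Cox6b1, the complex IV subunit that faces the intermembrane space and the single complex IV member called lower, was at 742, 453, 632 and 784 CPM (log2 ratio -0.71, -0.81 to -0.62). Long-term dormant was the highest library for Uqcr11 and Recurrent for the other two.

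Core and catalytic subunit genes differed among themselves. Atp5b, the catalytic beta subunit of the ATP synthase, was at 406, 439, 375 and 383 CPM (Dormant to Primary 0.11). Atp5a1, the alpha subunit, was at 245, 280, 260 and 236 CPM (0.19, 0.04 to 0.35). Both were highest in Dormant, against the direction of most members, but neither was called. Uqcrfs1, the Rieske iron-sulfur protein of complex III, was at 175, 155, 152 and 175 CPM and Uqcrc1, a core protein, at 107, 85.1, 94.2 and 97.6. Of the core complex I genes, Ndufs7 (-0.83, -1.04 to -0.61), Ndufv2 (-0.80, -1.05 to -0.54) and Ndufs8 (-0.72, -0.95 to -0.49) were called lower. Ndufs1, Ndufv1 and Ndufs3 had log2 ratios of -0.34, -0.52 and -0.54 and were not called. Among complex IV subunits near the catalytic core, Cox5a had -0.48 and Cox5b -0.19. The highest ratios among all members were those of Atp5md, a small ATP synthase subunit, at 0.45 (0.34 to 0.57) and of the assembly factor Ndufaf4 at 0.37 (-0.09 to 0.88), neither called.

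Recurrent T- or NK-like cells were close to Primary ones. With Recurrent against Primary, 0 of 74 members were called in either direction (background 5.27% higher and 3.43% lower), and the median was 0.01. Against Dormant, 27 of 75 members were called higher in Recurrent and 0 lower (background 16.6% and 15.1%, and 30.3% higher and 7.17% lower among genes of like length). Ndufc1 (1.06, 0.87 to 1.26), Uqcr11 (1.00, 0.84 to 1.15) and Ndufb3 (0.90, 0.65 to 1.15) led. In Long-term dormant against Dormant, 9 of 74 were called higher and 0 lower (background 16.0% and 11.7%), led by Uqcr11 (1.04), Ndufb7 (0.83) and Ndufc1 (0.83). Of 77 members, 62 (80.5%) were lowest in Dormant of the 4 libraries, against 29.4% of all genes tested.

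The low Dormant share was present within single lymphocyte clusters, a comparison added after the data were seen. T-like cluster 5 held 149 Primary and 748 Dormant cells, with shares of 2.35% and 1.81%, and 29 of its 70 tested members were called lower and 1 higher (background 15.8% and 19.1%). NK-like cluster 7 held 57 and 564 cells, with 2.70% and 2.16%, and 21 of 66 members were lower and 1 higher (10.8% and 21.9%). In T-like cluster 10 the gap was smaller, with 2.63% in Primary and 2.40% in Dormant, and 6 of 71 members were lower and 5 higher (14.5% and 12.3%). T-like cluster 14 had 2.96% and 2.51%, with 4 of 57 lower and 0 higher (12.2% and 14.3%). Dormant was lower in the share of all 4 clusters, while the gene calls concentrated in 2 of them.

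Markers of other cells and cycling genes differed between the libraries in T- or NK-like cells, and of these lists the plasma markers were highest in Dormant. Summed plasma markers were at 3081 CPM in Dormant T- or NK-like cells with 10 of 11 above 0 and Tnfrsf17 at 0. In the other libraries they were at 89.9 to 94.2 CPM, with 4 or 5 of 11 above 0. Summed macrophage or monocyte markers were at 1361, 568, 800.4 and 1123 CPM, with 13 to 15 of 15 above 0. Fibroblast markers were at 3.72, 91.4, 1054 and 21.7 CPM with 6 to 12 of 12 above 0, and cycling genes at 240, 139, 556 and 390 CPM with 8 of 8 above 0 in each. The part of these in the member values was not tested.

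The mitochondrially encoded respiratory chain genes had a median on the other side of 0 in the same cells. Of 12 tested, 5 were called higher in Dormant than in Primary T- or NK-like cells and 0 lower, with a median of 0.50. The complex I gene mt-Nd5 was at 167 CPM in Primary and 363 in Dormant (log2 ratio 1.12), and mt-Nd4l at 60.0 and 171 (interval 1.23 to 1.81). Complex II subunits, which are nuclear-encoded, had 2 of 4 lower and 0 higher, and mitochondrial import and shape genes 8 of 17 lower and 0 higher. TCA cycle genes had 5 of 15 lower and 0 higher, and glycolysis genes 1 of 14 higher and 3 lower with a median near 0. Beside these counts, 18.4% of all tested genes were higher and 17.4% lower, and more than 1 in 2 of the mitochondrially encoded and of the import genes were not called. All mitochondrial transcripts together took 3.01% of the UMIs in Primary and 3.69% in Dormant.

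**Figure D2:**
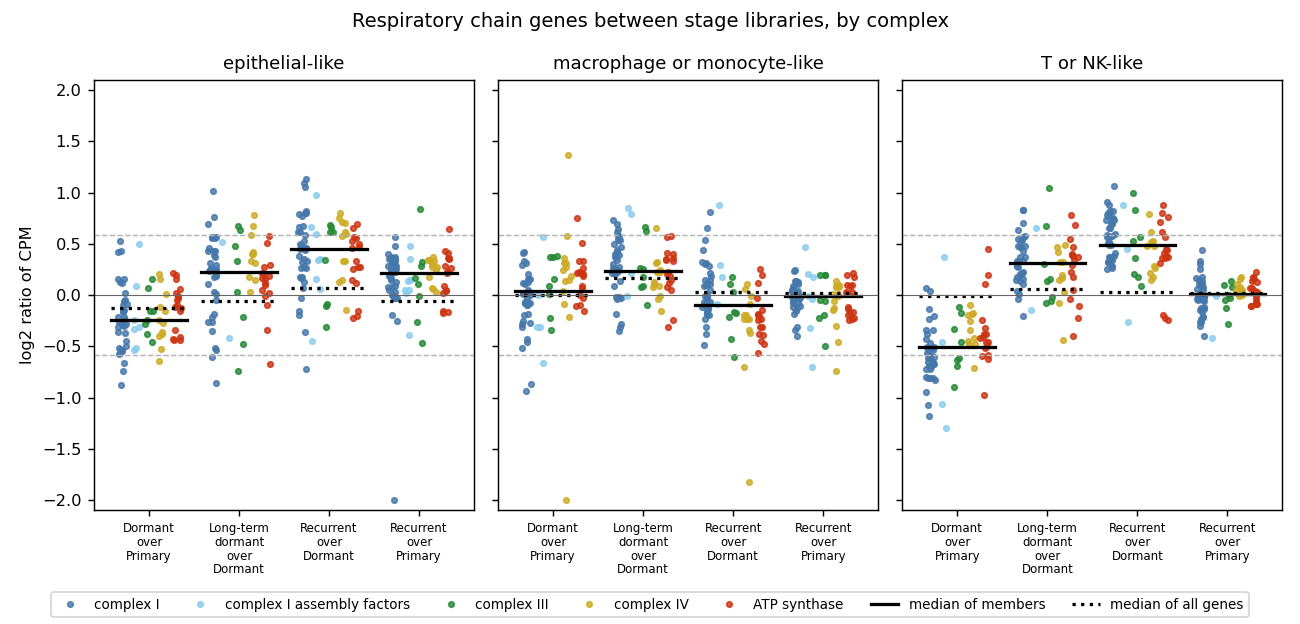
Log2 ratio of CPM (y axis) of each tested respiratory chain gene in 4 comparisons of stage libraries (x axis) in 3 cell classes (panels), coloured by complex; solid lines are member medians, dotted lines medians of all tested genes, dashed lines 1.5-fold. In T- or NK-like cells the Dormant over Primary points lie mostly below 0 (median -0.50) and the Recurrent over Primary points around 0 (median 0.01); values below -2 are drawn at -2 (Ndufa4l2 at -5.84 and Cox4i2 at -2.35).

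In epithelial-like cells the members were lowest in Dormant and highest in Recurrent. With Dormant against Primary, 4 of 81 members were called lower and 0 higher (background 20.5% and 13.4%), and the median was -0.24 against -0.13 for all genes. The 4 were Ndufb9, Ndufv3 and Ndufb7 of complex I and Cox7a1 of complex IV. Ndufb9, a membrane arm subunit, was at 511, 279, 413 and 580 CPM, and the Dormant level was the lowest (log2 ratio -0.87, -0.99 to -0.76). Ndufv3, an accessory subunit at the NADH end, was at 199, 119, 202 and 254 CPM (-0.74, -0.91 to -0.57). Ndufb7, another membrane arm subunit, was at 282, 178, 261 and 391 CPM (-0.66, -0.80 to -0.52), and the heart- and muscle-type isoform Cox7a1 at 16.2, 10.2, 13.5 and 17.0 CPM (-0.64, -1.30 to -0.09). Next came Ndufv2, a core subunit at the NADH end, at 150 and 101 CPM (-0.57, -0.76 to -0.39), which was not called.

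At the other end of that comparison no member passed the threshold. Ndufs1 had 0.53 (0.11 to 0.91), Ndufaf5 0.50 (-0.18 to 1.09), Ndufa11 0.43 (0.33 to 0.53) and Atp5e 0.21 (0.15 to 0.28). Atp5b was at 706 CPM in Primary and 737 in Dormant (0.06), and Atp5a1 at 394 and 399 (0.02). In basal-like clusters alone, 9 of 77 members were lower and 0 higher (background 29.9% and 13.2%), and in luminal-like clusters alone 3 of 80 and 0 (15.7% and 11.2%).

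Recurrent against Dormant gave the most calls in this class, with 27 of 82 members higher and 1 lower (background 20.9% and 17.6%). Among genes of like length 29.6% were called higher and 15.3% lower, so the count is near theirs. Scaled without mitochondrial, ribosomal protein, haemoglobin and immunoglobulin genes, 11 members were called higher and 1 lower, where 16.2% of all tested genes were higher and 21.7% lower. On the main scale Ndufb7 (1.13, 1.00 to 1.27), Ndufv3 (1.09, 0.93 to 1.26), Ndufb9 (1.06, 0.95 to 1.17), the assembly factor Ndufaf1 (0.98, 0.14 to 2.12) and Ndufs7 (0.82, 0.66 to 0.98), a core iron-sulfur subunit, were the highest. Ndufs1 was the member called lower, at 25.8 CPM in Dormant and 15.7 in Recurrent (-0.72, -1.09 to -0.33). Other low ratios, not called, were those of Ndufaf5 (-0.44), Uqcrc2 (-0.31) and Atp5b (-0.22). Complex I had 12 of 37 higher, complex III 4 of 8, complex IV 6 of 12, the ATP synthase 2 of 17 and the assembly factors 3 of 8.

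Several of these were well-counted complex IV genes. Cox6a1, the common form of a subunit at the dimer interface, was at 807, 560, 841 and 974 CPM (Recurrent to Dormant 0.80). Cox6b1 was at 917, 704, 939 and 1187 CPM (0.75), Cox8a at 1308, 1081, 1859 and 1655 (0.61) and Ndufa4 at 848, 718, 773 and 1254 (0.80). Uqcrfs1 was at 256, 187, 190 and 287 CPM (0.62). Dormant was lowest in each of these, with Long-term dormant close to it for Uqcrfs1. Cox5b was at 450, 453, 462 and 569 CPM (0.33) and Cox5a at 326, 362, 400 and 394 (0.12), neither called.

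Fewer members were called higher when luminal-like clusters were taken alone, and the part of the cell mixture in this was not tested. In those clusters, 8 of 82 members were higher in Recurrent than in Dormant and 2 lower (background 14.6% and 13.3%). The median was 0.26, against 0.01 for all tested genes. Luminal-like cluster 3, the cluster with at least 50 cells in both libraries, had 2 of 72 members higher and 12 lower (22.7% and 14.9%), and its share was 2.76% in Recurrent and 2.97% in Dormant. The direction of the summed share within that cluster was therefore opposite to that of the class. Cells with an eGFP UMI alone gave 28 members higher and 1 lower, beside 27 and 1 in the whole class. The background of the whole class was 20.9% and 17.6%, and none is given for these cells alone, so nothing is read from their count. Cycling genes were at 294, 94.3, 75.8 and 124 CPM in the epithelial-like cells, and fibroblast markers at 20.2, 494, 1066 and 20.0 CPM with 11 or 12 of 12 above 0. T markers were at 30.6, 457, 57.5 and 26.0 CPM, with 9 to 12 of 12 above 0, and their part in the result was not tested.

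Recurrent and Primary epithelial-like cells were compared with the largest counts in the study. Of 83 members, 2 were called higher and 1 lower (background 9.72% and 16.6%), and the median was 0.21 against -0.06 for all genes. Uqcrq, a small subunit of complex III, was at 349 CPM in Primary and 623 in Recurrent (0.84, 0.79 to 0.88), and Atp5md at 501 and 786 (0.65, 0.61 to 0.69). Ndufa4 (0.56, 0.53 to 0.59), Ndufaf1 (0.48, 0.11 to 0.88) and Ndufb7 (0.47, 0.42 to 0.53) followed without passing 1.5-fold. Ndufa4l2 was the member called lower and is described with the isoforms. The next lowest were Uqcrc2 (-0.47), Ndufaf7 (-0.39), Uqcrc1 (-0.26) and Ndufa9 (-0.25). Mitochondrially encoded genes had 4 of 13 lower and 0 higher with a median of -0.55, so the nuclear and mitochondrial subunits lay on opposite sides of 0 here too.

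The luminal-like clusters did not move alike between these 2 libraries. In cluster 0 the share was 3.23% in Primary and 3.66% in Recurrent, in cluster 13 it was 3.74% and 4.18%, and in cluster 21 it was 2.78% and 3.66%. In cluster 3 the order was reversed, at 3.13% and 2.76%. Cluster 21 had 11 of 72 members higher and 0 lower (background 17.3% and 8.85%), and cluster 3 had 0 higher and 9 of 78 lower (12.2% and 13.5%). Cluster 0 had 0 of 82 called in either direction (5.83% and 4.69%). Cluster 3 held 1337 of the Primary cells and 189 of the Recurrent cells, and cluster 0 held 87 and 2106.

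Long-term dormant epithelial-like cells, which nearly all had no eGFP UMI, were also compared with Dormant ones. Of 74 members, 8 were higher and 4 lower (background 9.42% and 19.2%), with a median of 0.22 against -0.06. The higher calls were thus near the background and the lower calls below it. Ndufa7, an accessory subunit of complex I, was at 384 CPM in Dormant and 778 in Long-term dormant (1.02, 0.87 to 1.16). Cox8a (0.78), Ndufv3 (0.76), Ndufa2 (0.70) and Cox4i1 (0.67) were also higher. Ndufa9, which binds a nucleotide cofactor in complex I, was at 47.3 and 25.7 CPM (-0.85, -1.62 to -0.21), and Uqcrc2, a core protein of complex III, at 101 and 59.9 (-0.74). Atp5b was at 737 and 462 CPM (-0.67, -0.84 to -0.51) and Ndufa12 at 214 and 141 (-0.60), both called lower, and Ndufb6 followed at -0.54. Within Dormant, the 44 cells without an eGFP UMI had a member share of 3.20% (3.13 to 3.27) and the 260 with one 2.71% (2.69 to 2.73). The Long-term dormant share was 3.43% in the 159 cells without eGFP and 2.75% in the 3 with it. In Recurrent the order was the reverse, at 3.48% (3.38 to 3.58) in 28 cells without eGFP and 3.70% in those with it. In Primary, 6 cells without eGFP had 2.93% (2.60 to 3.29) and the others 3.13%, so no common direction is read.

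Glycolysis genes moved further than the respiratory chain in epithelial-like cells. In Dormant against Primary, 8 of 14 were lower and 0 higher (median -0.95), and 6 of 11 hypoxia response genes were lower and 0 higher (median -0.72). The glycolytic enzyme gene Pgk1 was at 446 CPM in Primary and 135 in Dormant. In Recurrent against Dormant, 10 of 14 glycolysis genes were higher and 0 lower (median 1.10), with Aldoa, a glycolytic aldolase gene, at 401 CPM in Dormant and 949.9 in Recurrent. Genes of uncoupling and reactive oxygen defence had 6 of 9 higher and 1 lower. Mitochondrially encoded genes had 1 of 13 higher and 5 lower (median -0.28). Of all tested genes, 20.5% were lower and 13.4% higher in Dormant against Primary. In Recurrent against Dormant, 20.9% were higher and 17.6% lower.

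In macrophage- or monocyte-like cells the members were highest in Long-term dormant. There, 58 of 83 members (69.9%) had their highest level of the 4 libraries, against 41.8% of all genes. Against Dormant, 8 of 78 were called higher and 0 lower (background 18.3% and 10.5%), with a median of 0.24 against 0.17 for all genes. Ndufs6, an accessory subunit at the NADH end of complex I, was at 166, 155, 259 and 181 CPM (Long-term dormant to Dormant 0.73, 0.50 to 0.97). The assembly factors Ndufaf8 (0.79, 0.44 to 1.17) and Ndufaf4 (0.85, 0.04 to 1.89) were also higher. The lowest were Ndufa9 (-0.35), Atp5md (-0.31) and Ndufc2 (-0.31), none called. Under TMM scaling, which moved the median of all genes from 0.17 to -0.01, 1 member was called (background 11.4% higher and 14.8% lower). With each cell weighted equally, 2 were called, and no background is given for that count, so nothing is read from it.

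Few members were called between Dormant and Primary macrophages, a smaller part than of all tested genes. Of 81 members, 2 were higher and 3 lower (background 14.5% and 13.4%), with a median of 0.04. Scaled without mitochondrial, ribosomal protein, haemoglobin and immunoglobulin genes, 5 were called and the balance turned to higher. On that scale 16.2% of all tested genes were higher and 11.8% lower, so the calls of all genes also leaned to higher. Cox6b2, the testis-type isoform of Cox6b1, was at 14.2, 36.3, 35.7 and 10.3 CPM, so both dormant libraries lay above both tumour libraries (Dormant to Primary 1.37, 0.81 to 1.87). Atp5md was at 315, 531, 427 and 360 CPM (0.75, 0.62 to 0.88), also highest in Dormant. Cox5a, not called, was at 481, 714, 641 and 440 CPM (0.57, 0.46 to 0.68). Ndufv3 was the reverse, at 314, 172, 218 and 301 CPM (-0.87, -1.09 to -0.66). Ndufs1 was at 14.7 and 7.27 CPM in Primary and Dormant (-0.93, with an upper bound just below 0), from few UMIs, and had a log2 ratio of 0.11 with each cell weighted equally.

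Recurrent macrophages were nearer to Primary ones in these genes. Against Dormant, 3 of 79 members were higher and 3 lower (background 14.3% and 12.5%), with a median of -0.10. Cox6b2 (-1.83, -2.37 to -1.24), Cox5a (-0.70, -0.81 to -0.59) and Uqcrfs1 (-0.61, -0.84 to -0.36) were lower. Ndufaf4 (0.87, 0.09 to 1.91), Ndufv3 (0.81, 0.60 to 1.03) and Ndufa5 (0.65, 0.36 to 0.98) were higher. Against Primary, 0 of 83 were higher and 2 lower (7.07% and 3.37%), with a median of -0.01, and these were Cox4i2 (-0.74, -1.23 to -0.29) and the assembly factor Ndufaf7 (-0.70, -1.17 to -0.25). The highest, not called, were Ndufaf2 (0.47), Ndufa4 (0.24) and Ndufb2 (0.24). Glycolysis genes had 1 of 14 higher and 8 lower in Dormant against Primary (background 14.5% and 13.4%, median -0.70). Gapdh was at 3169 CPM in Primary and 1594 in Dormant. Fibroblast markers in these cells were at 3.25, 86.3, 863 and 28.0 CPM, with 10 to 12 of 12 above 0, and their part was not tested.

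Macrophage-like cluster 2 held cells of all 4 libraries and showed another order. Its share was 2.88%, 2.50%, 2.93% and 2.71% in stage order. In Dormant against Primary, 8 of its 64 members were lower and 0 higher (background 11.5% and 14.2%), and in Long-term dormant against Dormant 5 of 76 were higher and 0 lower (13.4% and 10.5%). The Dormant share was thus below Primary within the cluster and above it in the class as a whole.

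**Figure D3:**
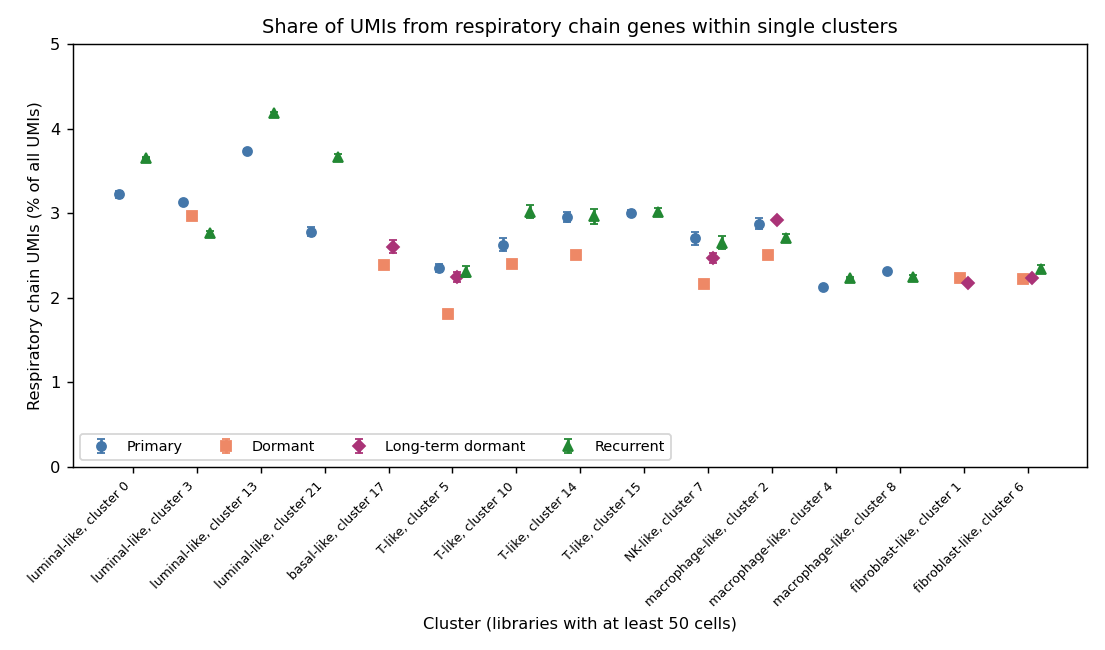
Share of UMIs from respiratory chain genes (y axis, % of all UMIs) within single clusters (x axis) that have at least 50 cells in 2 or more libraries; error bars are 95% Clopper-Pearson intervals for counting error. Dormant lies lowest in T-like clusters 5, 10 and 14, in NK-like cluster 7 and in macrophage-like cluster 2, while Recurrent lies lowest in luminal-like cluster 3 (2.76%).

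In fibroblast-like cells, Long-term dormant against Dormant gave 13 of 82 members lower and 0 higher (background 14.8% and 12.8%), with a median of -0.08. The 13 included core subunit genes (Ndufs1, Ndufv1, Uqcrc1, Uqcrc2 and Atp5b), accessory or small subunit genes (Ndufa9, Ndufa12, Ndufs4, Ndufb4 and Uqcrb), the assembly factor genes Ndufaf3 and Ndufaf4, and Ndufa4l2. Ndufa4l2 was at 83.7 CPM in Dormant and 30.1 in Long-term dormant (-1.48, -1.77 to -1.18). Ndufs1 was at 26.0, 13.9 and 14.8 CPM in the last 3 libraries (-0.91, -1.40 to -0.37), and Ndufa9 at 46.5, 24.9 and 16.1 (-0.91, -1.28 to -0.52). Atp5b was at 438, 257 and 259 CPM (-0.77), Uqcrc1 at 112, 70.7 and 72.5 (-0.67) and Ndufv1 at 62.6, 41.7 and 34.9 (-0.59), each lower in Long-term dormant and Recurrent than in Dormant. Small subunit genes lay on both sides of 0. Uqcrb (-0.72, -0.86 to -0.58) and Ndufb4 (-0.61, -0.78 to -0.43) were called lower, while the 3 highest ratios, none of them called, were those of Uqcr11 at 280, 404 and 377 CPM (0.53), Ndufb7 at 133, 182 and 200 (0.45) and Uqcr10 at 326, 443 and 438 (0.44). Glycolysis genes had 10 of 14 lower and 1 higher (median -0.84) and TCA cycle genes 4 of 15 lower. Recurrent against Dormant, with 104 Recurrent cells, gave 1 of 73 members higher and 4 lower (12.5% and 15.9%).

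In dendritic-like cells, Long-term dormant against Dormant gave 2 of 73 members higher and 1 lower (background 13.4% and 13.4%). Ndufa6, an accessory subunit of complex I, was at 725, 437 and 790 CPM in the first 3 libraries (0.85, 0.71 to 1.00). Ndufs7 was at 101, 58.3 and 98.2 CPM (0.74, 0.34 to 1.18). Both were lowest in Dormant. Ndufa12 was at 143, 116 and 73.5 CPM (-0.65, -0.99 to -0.31), lowest in Long-term dormant.

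Transcript length went with the members' ratios in several comparisons. Median coding transcript lengths came from the GENCODE annotation, with a median of 718.5 bases over the 89 members that had one. In Long-term dormant against Dormant, Spearman's rho of length and log2 ratio across the tested members was -0.53 in epithelial-like cells and -0.62 in fibroblast-like cells, against 0.01 and 0.30 across all tested genes. These are correlations across genes, which share libraries and are not replicates, so no p is given. Among all tested genes, those shorter than 718.5 bases had median log2 ratios of 0.21 (epithelial-like) and 0.13 (fibroblast-like). The longer ones had -0.08 and -0.02. These medians include the members and ribosomal protein genes, so they do not describe short genes beyond the members. Genes of like length that are neither had medians of -0.003 (epithelial-like) and -0.12 (fibroblast-like). Short members such as Uqcr11, Ndufa7 and Cox8a had the higher epithelial ratios, and longer ones such as Atp5b, Uqcrc2 and Ndufa9 the lower. This correlation was also below 0 across members in Recurrent against Primary epithelial-like cells (-0.47, and -0.09 across all genes). In macrophage- or monocyte-like cells it was -0.34 in Dormant against Primary, -0.29 in Long-term dormant against Dormant and -0.36 in Recurrent against Primary, where all genes had 0.12, 0.15 and 0.19. In T- or NK-like cells it was -0.33 in Long-term dormant against Dormant (0.11 across all genes) but 0.02 in Dormant against Primary (0.32).

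**Figure D4:**
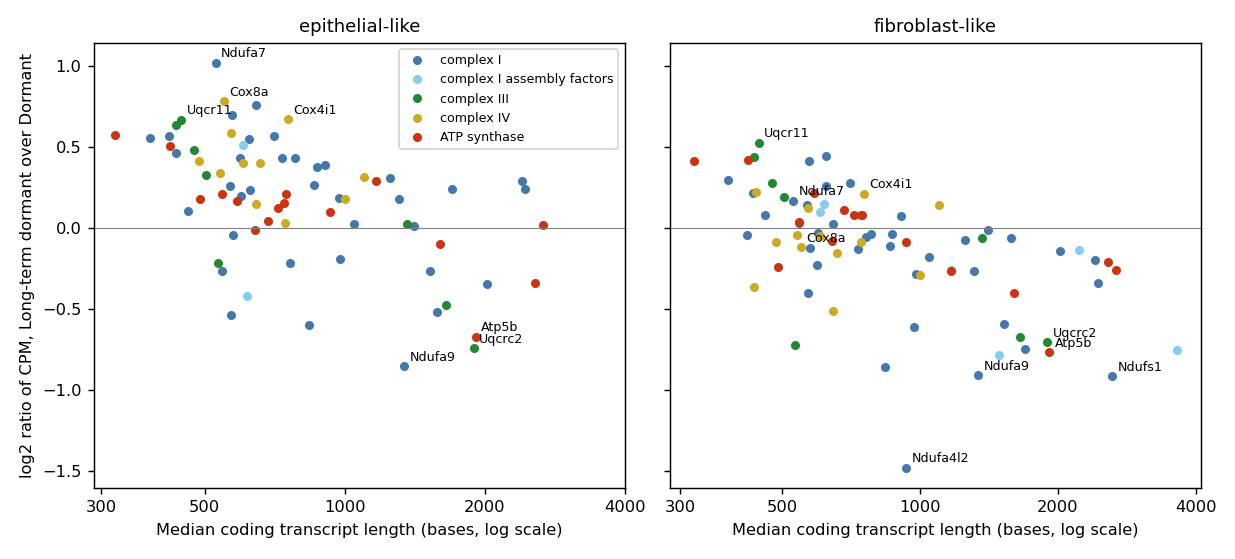
Log2 ratio of CPM of Long-term dormant over Dormant (y axis) against median coding transcript length (x axis, bases, log scale) for tested respiratory chain genes in epithelial-like (left) and fibroblast-like cells (right), coloured by complex. Atp5b, Uqcrc2 and Ndufa9 lie low on the right of both panels, at -0.67, -0.74 and -0.85 in epithelial-like cells, and Uqcr11 lies high on the left.

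Classes were also compared within each library, an analysis added after the data were seen. Epithelial-like cells were above T- or NK-like cells in each of the 4 libraries for 7 of 70 members, where 13.2% of all genes met that rule. These were Ndufc2, Ndufb9, Ndufa11, Ndufb2 and Ndufab1 of complex I and Uqcr11 and Uqcrb of complex III. They were above macrophage- or monocyte-like cells for 4 of 74 (background 14.2%), namely Ndufa4, Ndufa7, Ndufs4 and Ndufa5. Against fibroblast-like cells, in the 3 libraries with enough of them, 13 of 76 were higher (9.83%). Those were Ndufa4, Ndufa10, Ndufc2, Ndufs8, Uqcrfs1, Uqcr11, Uqcrc2, Cox5a, Cox5b, Atp5b, Atp5g1, Atp5g2 and Atp5g3. No member was lower in epithelial-like cells in every library in any of the 3 pairs, where 12.9%, 13.6% and 14.3% of all genes were. Luminal-like cells were above basal-like cells in 3 libraries for Ndufa4 and Cox6a1, 2 of 62 members (5.90%). Ndufa4 was at 922, 921 and 836 CPM in luminal-like and at 595, 521 and 542 in basal-like cells of Primary, Dormant and Long-term dormant.

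Isoforms restricted to few cells gave the sharpest contrasts. Cox6a2, the heart- and muscle-type isoform of Cox6a1 (GRCm38, chromosome 7, 128205435 to 128206387), was found in plasmacytoid dendritic-like cells, the interferon-producing class. It was at 720.5, 478, 303 and 1115 CPM in stage order, from 22, 134, 224 and 26 cells. At least 1 Cox6a2 UMI was in 20 of 22, 109 of 134, 64 of 224 and 23 of 26 cells. With each cell thinned to 1000 UMIs the shares were 33.3%, 42.9%, 25.7% and 65.4%, and 1, 1, 41 and 0 cells with fewer UMIs dropped out. Their median depths were 5071, 4380, 1991.5 and 4173.5 UMIs. Cox6a2 was not among the genes used for clustering. In other clusters it reached at most 38.3 CPM, in a Dormant fibroblast-like cluster with a UMI in 2 cells. In epithelial-like cells of Primary, with a median of 5753 UMIs per cell, 0 of 2106 had a UMI, and 0 of 2095 did after thinning. The exact interval allows up to 0.175% of cells with a UMI, which is no limit on cells expressing the gene. In epithelial-like cells of Dormant, with a median of 6860 UMIs, 8 of 304 had a UMI (2.63%), and 3 of 302 after thinning. In macrophage-like cells of Primary, with a median of 7298 UMIs, 25 of 1267 did, and 3 of 1264 after thinning. How many cells fell into the plasmacytoid class depended on the clustering, so its levels are those of cluster 12.

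Ndufa4l2, known as a hypoxia-induced relative of Ndufa4 (chromosome 10, 127514967 to 127517154), and Cox4i2, the lung-type isoform of Cox4i1 (chromosome 2, 152754173 to 152765037), met in the pericyte or vascular smooth muscle-like cells. There were 25, 6, 13 and 3 such cells in stage order, too few to compare stages. In Primary, Ndufa4l2 was at 1280 CPM (1115 to 1462) with a UMI in 24 of 25 cells, and Ndufa4 at 53.1 (24.3 to 101). Ndufa4 was at 848 CPM in Primary epithelial-like cells, so the pair was reversed between the 2 classes. Cox4i2 was at 773 CPM (646 to 917) in 19 of the 25 cells, beside Cox4i1 at 1610. These cells had all 9 pericyte markers above 0, with Rgs5 at 4648 CPM. The few pericyte-like cells of the other libraries had Ndufa4l2 at 1035 (Dormant), 84.5 (Long-term dormant) and 586 CPM (Recurrent), from 10, 1 and 6 UMIs.

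Ndufa4l2 was seen at lower levels elsewhere. Fibroblast-like cells had 83.7, 30.1 and 67.1 CPM in the last 3 libraries, and the Long-term dormant to Dormant log2 ratio of -1.48 (-1.77 to -1.18) was the lowest of any member in that comparison. The UMIs came from 31 of 300, 218 of 2901 and 6 of 104 cells, with up to 33, 25 and 29 in a single cell. Pericyte markers in these fibroblasts were at 137, 163 and 142 CPM, while the pericyte marker Rgs5 was at 0, 0.444 and 0 CPM. In epithelial-like cells Ndufa4l2 was at 6.97 CPM in Primary (33 cells), 0 in Dormant and Long-term dormant, and 0.105 in Recurrent. The 0 allows up to 1.14 CPM in Dormant and 3.67 in Long-term dormant at 3 counts. The Recurrent to Primary log2 ratio was -5.84 (-8.36 to -4.46). Of the 99 Primary UMIs, 88 were in basal-like cluster 11, and Recurrent held 17 basal-like cells in all.

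Cox4i2 was also found in macrophages of the tumours. It was at 11.6 (9.54 to 13.9), 1.82 (0.220 to 6.56), 0.554 (0.114 to 1.62) and 6.88 CPM (5.25 to 8.86), with a UMI in 78 of 1267, 2 of 230, 3 of 1470 and 51 of 1274 cells. Primary and Recurrent had the higher levels, although the intervals of Dormant and Recurrent overlapped, and the Dormant to Primary log2 ratio was -2.35 (-5.73 to -0.78). Thinned to 1000 UMIs, 13 of 1264 Primary, 0 of 208 Dormant, 1 of 1318 Long-term dormant and 12 of 1266 Recurrent macrophages had a UMI. In Primary epithelial-like cells 1 of 2106 had a UMI. Pericyte markers in macrophages were at 7.41, 1.82, 4.25 and 8.83 CPM, with 2 to 8 of 9 above 0 and Rgs5 at 1.01, 0, 0.370 and 0.115, and their part was not tested. Cox8b, the heart- and muscle-type form of Cox8a, had 42 UMIs in the whole table.

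**Figure D5:**
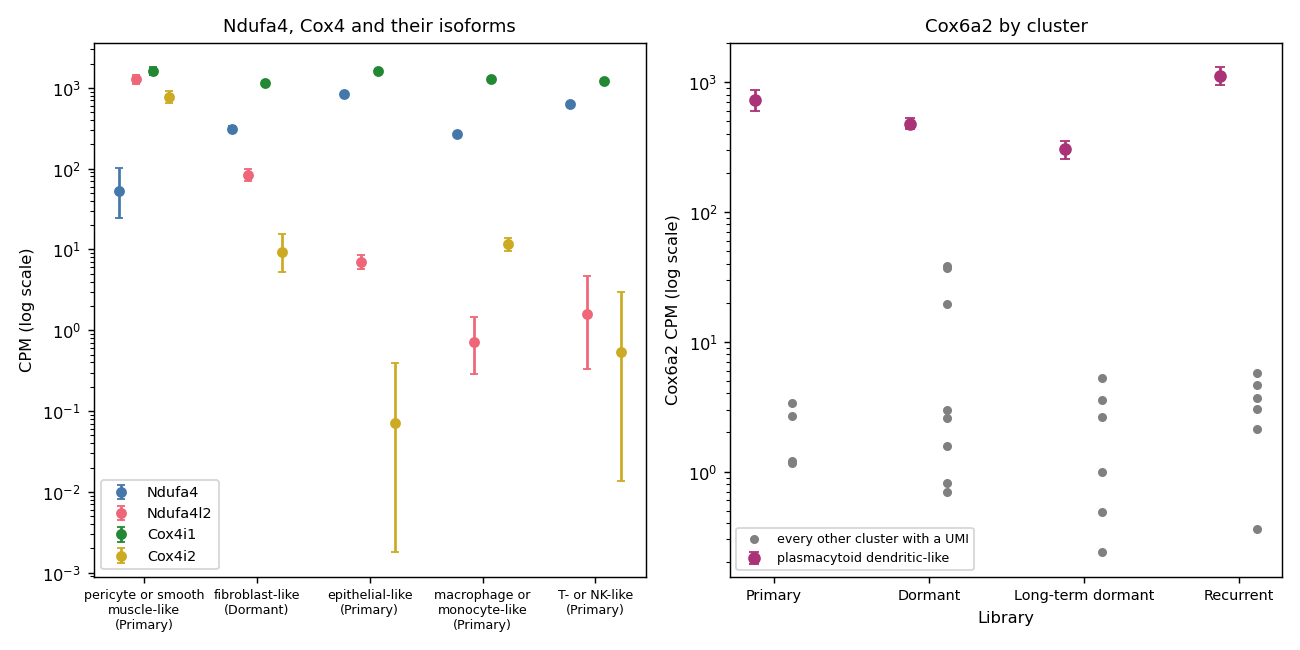
Left, CPM (log scale) of Ndufa4, Ndufa4l2, Cox4i1 and Cox4i2 in 5 cell classes of the library named under each; right, CPM (log scale) of Cox6a2 by library in the plasmacytoid dendritic-like cluster and in every other cluster with a UMI; bars are 95% Poisson intervals for counting error. Ndufa4l2 lies above Ndufa4 in the pericyte-like cells (1280 against 53.1 CPM), and Cox6a2 lies at 303 to 1115 CPM in the plasmacytoid cluster.

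Isoforms made in every class shifted less. The genes Atp5g1, Atp5g2 and Atp5g3, encode the same mature c subunit of the ATP synthase rotor. Atp5g1 gave 34.3%, 33.1%, 31.1% and 39.5% of their UMIs in epithelial-like cells in stage order. It gave 37.5%, 32.8%, 31.8% and 41.1% in macrophage-like cells and 30.1%, 30.4%, 28.5% and 33.3% in T- or NK-like cells. The Recurrent library was highest and Long-term dormant lowest in each of the 3 classes. Among Cox7a1, Cox7a2 and Cox7a2l, the supercomplex factor gene Cox7a2l gave 51.9%, 53.3%, 43.0% and 50.8% of the UMIs in T- or NK-like cells. In epithelial-like cells it gave 36.8%, 44.4%, 43.0% and 32.7%, higher in both dormant libraries than in both tumours.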

How the data were processed

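The authors deposited whole-number UMI counts, with genes in rows and cells in columns, for the 4 stage libraries. The submitters' processing notes name FastQC, Cell Ranger 3.1.0 and the build mm10. The Chromium single cell kit was version 2, per the labels. Cells under 500 UMIs or 200 genes or over 20% mitochondrial UMIs were left out, and doublets were removed at Scrublet's own threshold (scanpy 1.11.5). The 4 libraries were clustered together without the 90 members (counts scaled to 10000 per cell, 2000 variable genes, 30 principal components, 15 neighbours, Leiden resolution 1.0, leidenalg 0.10.2), and clusters were named from marker lists. UMI counts were summed per class and library and given as CPM, and 0.5 counts were added to both sides of a log2 ratio. Shares had Clopper-Pearson, levels Poisson and ratios conditional Poisson exact 95% intervals. A count of 0 was given a limit of 3 counts.

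Members, marker lists and gene lists were chosen with earlier results of these data known. Named by rule were the 5 highest and 5 lowest members per epithelial-like comparison (3 and 3 in other classes), core subunits, isoform sets, members restricted to 1 class, and up to 2 genes per list. One gene that this rule names is not reported here. Other named genes were chosen after their values were seen, namely Uqcr11, Ndufc1, Cox6b1, Ndufs3, Ndufs7, Ndufs8 and Ndufv2 in Dormant against Primary lymphocytes, the called genes in fibroblast-like cells and the genes of the comparison between classes. Promoters came from RefSeq (GRCm38.p6), gene positions and lengths from GENCODE (GRCm38).

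The ratio step was tested on counts simulated with Poisson error alone, which is the error its intervals assume. The simulation held no spread between cells or libraries. It therefore checks the calculation, and its rates are not those of real libraries. For Dormant against Primary T- or NK-like cells (5276 genes), 94.5% of 200 genes changed 2-fold and 1.50% of unchanged genes were called. For Recurrent against Dormant epithelial-like cells (9545 genes) the shares were 86.5% and 1.34%. TMM factors alone came from edgeR 4.0.16 in R 4.3.3, and the remaining software was pandas 2.3.3, scipy 1.17.1, numpy 2.4.6 and matplotlib 3.10.9 under Python 3.11.15. No p-value was computed, because each group held 1 library.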

Additional observations from a re-analysis of the deposited data

How the results depend on the processing

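No paired analysis was possible because each group held 1 library. For counts of called members, 136 of 167 settings tried stayed within 1.5 times the main count and kept its direction. The cause of the moves below was not tested. Counts given below without a background are set beside the main count only and are no result about the members.

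Scaled without mitochondrial, ribosomal, haemoglobin and immunoglobulin genes, 12 epithelial-like members were called in Recurrent against Dormant, 5 macrophage-like in Dormant against Primary with the balance turned to higher, and 14 in Long-term dormant against Dormant. In Primary, Dormant, Long-term dormant and Recurrent the shares were then 5.07%, 4.54%, 6.06% and 5.54% in epithelial-like, 2.95%, 3.39%, 4.28% and 2.94% in macrophage-like and 4.95%, 3.82%, 4.47% and 4.96% in T- or NK-like cells. With each cell weighted equally they were 2.99%, 2.56%, 3.26% and 3.52%, then 2.22%, 2.44%, 2.75% and 2.26%, then 2.67%, 2.05%, 2.37% and 2.74%. That weight gave 11 epithelial-like calls in Dormant against Primary and 2 macrophage-like calls in Long-term dormant against Dormant, and turned Ndufs1 in Dormant against Primary macrophages to 0.11.

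The stricter cell filter gave 13 calls in Long-term dormant against Dormant macrophages, and shares of 3.15% (Primary) and 3.70% (Recurrent) in epithelial-like, 2.57% (Dormant) and 3.15% (Long-term dormant) in macrophage-like and 2.85% (Primary) and 2.67% (Long-term dormant) in T- or NK-like cells. With doublets kept, the same macrophage comparison gave 13 calls, the Primary epithelial-like share was 3.12%, and macrophage-like shares were 2.30%, 2.55%, 3.14% and 2.34%. The Long-term dormant macrophage-like share was 2.97% at resolution 0.5, 3.12% at 2.0 (2.55% in Dormant) and 3.12% with members used for clustering.

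Without assembly factors, 1 macrophage-like member was called in Recurrent against Primary, and shares were 3.11% (Primary) and 3.67% (Recurrent) in epithelial-like, 2.26%, 2.98% and 2.27% (Primary, Long-term dormant, Recurrent) in macrophage-like and 2.11% (Dormant) in T- or NK-like cells. TMM factors gave 1 call in Long-term dormant against Dormant macrophages and 4 in T- or NK-like cells, and moved the median of all genes in the latter from 0.05 to -0.06. Scaling without mitochondrial and ribosomal genes moved that median in epithelial-like cells from -0.06 to 0.05 in Long-term dormant against Dormant, from 0.07 to -0.06 in Recurrent against Dormant and from -0.06 to -0.17 in Recurrent against Primary.

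A minimum of 20 UMIs gave 7 epithelial-like calls in Dormant against Primary, 4 macrophage-like and 1 T- or NK-like in Recurrent against Primary and 5 dendritic-like. At 2-fold, epithelial-like calls were 0, 1, 3 and 1 (Dormant against Primary, Long-term dormant against Dormant, Recurrent against Dormant, Recurrent against Primary, the last turned to lower). Macrophage-like calls were then 2, 0, 1 and 0, T- or NK-like calls 4, 1 and 1 in the first 3, and fibroblast-like and dendritic-like calls 1 and 0. Luminal-like clusters alone gave 10 calls in Recurrent against Dormant. Of the settings chosen after the data were seen, T-like cells alone gave 14 calls in Long-term dormant against Dormant. All were higher, of 74 members (background 16.1% higher and 10.9% lower). Basal-like clusters alone gave 9 of 77 in Dormant against Primary, all lower (background 29.9% lower). They gave 6 of 72 in Long-term dormant against Dormant, 5 higher and 1 lower (background 10.6% and 19.0%). Cells with an eGFP UMI could not be compared in Long-term dormant, which had 3. Median depth within the epithelial-like, T- or NK-like and macrophage-like classes was lowest in Long-term dormant (4389, 1436.5 and 3018 UMIs per cell).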
